A study of Homo sapiens with 12 samples.

Results

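The genes described here differed between diets on average over both sorted populations of a human breast tumour. They were chosen from 12 RNA-sequencing libraries in 2 steps. A gene first had to differ between diets on average over the populations at an adjusted p below 0.05, in edgeR's quasi-likelihood test with population as a covariate. Its fitted difference then had to have the same sign in each population. Of 15461 genes tested, 532 passed the first step, which is 3.44%; 342 (2.21%) were higher and 190 (1.23%) lower under the fasting-mimicking diet. Of these, 324 were higher and 190 lower in both populations, and the remaining 18 had opposite signs and are not described. Agreement in sign is therefore a condition of membership and not a finding.

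The tumours came from SUM159 (SUM159PT) cells, an established human triple-negative breast cancer line, injected into female NOD scid gamma mice that were 8 weeks old. This host lacks mature T, B and NK cells but keeps monocytes, macrophages and neutrophils. Treated mice received repeated fasting-mimicking diet (FMD), for 4 days in a row in each week, and the others ate a standard diet and carried the label untreated. Cells of the tumour masses were stained for human CD24 and CD44 and sorted into CD44+CD24-Low and CD44+CD24-High cells. This gave 3 libraries each of CD24-low cells under the fasting-mimicking diet (FMD_LO), CD24-high cells under it (FMD_HI), CD24-low cells under the standard diet (CTR_LO) and CD24-high cells under the standard diet (CTR_HI). The labels do not say whether the 3 libraries of a group came from separate mice, so p-values measure the spread between these libraries, which may be technical. They also do not say whether the CD24-low and CD24-high libraries of one number came from one tumour, in which case the 12 libraries would be fewer independent samples than the test counts.

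A fasting-mimicking diet is a low-calorie, low-protein regimen that lowers circulating glucose, insulin and IGF1 and raises free fatty acids and ketone bodies. Cells that take up more fatty acids activate PPAR nuclear receptors, whose targets carry fatty acids into mitochondria, oxidise them and spare glucose. Less growth factor signalling is usually accompanied by lower expression of genes of mitosis. CD44-positive breast cancer cells with little CD24 are widely used as a population enriched for stem-like cells.

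The FMD_LO libraries stood apart before any gene was compared. Their totals were 17736610 to 18579816 counts, against 29049144 to 47587142 counts in the other 9. The summed level of 20 macrophage and pan-leukocyte markers was 246.8 to 316 CPM (counts scaled per 1e6 of the library total) in FMD_LO and 48.48 to 76.6 in FMD_HI, against 30.13 to 49.03 in CTR_LO and 38.67 to 54.49 in CTR_HI. Of these markers, 4 had no count in any FMD_LO library and 3 in any FMD_HI library, against 4 in CTR_LO and 4 in CTR_HI. The leukocyte antigen PTPRC had 44.35 to 56.89 CPM in FMD_LO and at most 4.445 CPM in any other library. Summed fibroblast markers reached 48290 to 67150 CPM in FMD_LO and 15500 to 18650 in FMD_HI, against 21820 to 37980 in CTR_LO and 17330 to 33980 in CTR_HI. For the fibroblast genes DCN and LUM, FMD_LO overlapped the CTR groups. DCN had 51.93 to 72.91 CPM in FMD_LO, against 32.43 to 104 in CTR_LO and 17.8 to 109.8 in CTR_HI. LUM had 10.49 to 34.62 CPM in FMD_LO, against 7.575 to 62.39 in CTR_LO and 1.067 to 29.07 in CTR_HI. PDGFRA had 143.2 to 193.7 CPM in FMD_LO, against 116.1 to 170 in FMD_HI and 95.74 to 124.1 in the CTR libraries. Summed muscle, fat and nerve markers, 19 in all, were 136 to 164.6 CPM in FMD_LO and 36.98 to 41.34 in FMD_HI, against 35.88 to 58.78 in CTR_LO and 34.09 to 46.51 in CTR_HI, with 2 markers without a count in FMD_LO and 4 in FMD_HI, against 2 in CTR_LO and 2 in CTR_HI. Whether mouse reads were removed before counting is not given in the sources used here, so a level may hold reads of host cells, and fewer cells of a type and less RNA per cell cannot be told apart. Genes used here to identify the tumour cells were present in every library. The mesenchymal filament gene VIM stood at 4336 to 6136 CPM and CD44 at 621.7 to 1223 CPM over all libraries. The keratin genes were lowest in FMD_LO. KRT8 had 304.2 to 337.9 CPM there, against 371.9 to 541.8 CPM in the other libraries. KRT18 had 254.3 to 330 CPM there, against 369.3 to 452.5 CPM. CD24 messenger RNA stood at only 1.023 to 3.214 CPM, and the sort used its protein.

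**Figure D1:**
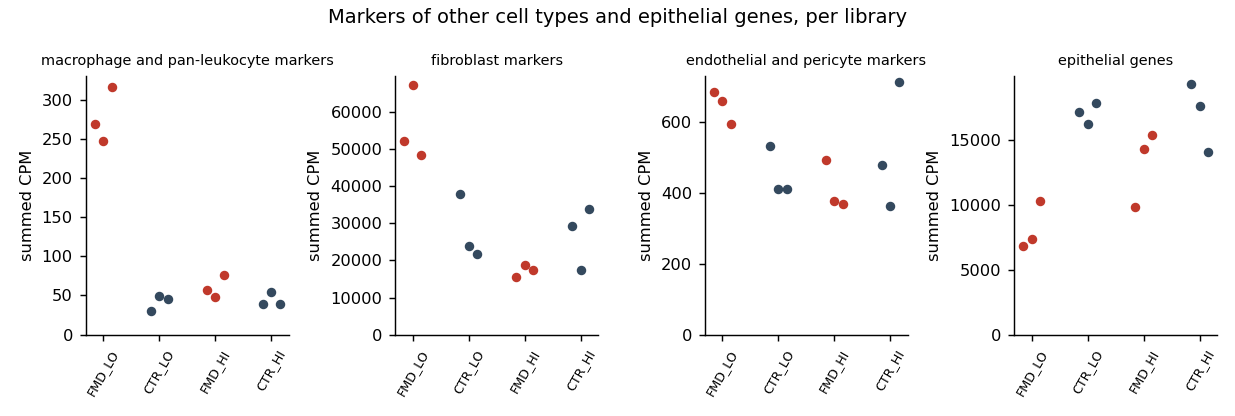
Summed CPM of 3 marker lists of other cell types and of the epithelial genes in each library, one point per library, with FMD libraries in red and CTR libraries in dark blue. FMD_LO lies above every other library for leukocyte and fibroblast markers, whereas FMD_HI overlaps CTR_HI for both.

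Averaged over the populations, genes of fatty acid use and of the BMP and ID group were among those higher under the fasting-mimicking diet, and genes of mitosis, sterol synthesis and epithelial adhesion were among those lower. The median log2 fold change of the 324 higher genes was 1.20 in CD24-low and 0.63 in CD24-high cells, and that of the 190 lower genes was -0.84 and -0.56, where all genes tested had medians of -0.03 and 0.00. The difference was larger in CD24-low cells for 276 of the 324 higher genes and for 165 of the 190 lower genes. A test of that difference between populations passed for 66 of the 324 higher genes and 1 of the 190 lower ones, against 4.13% of all genes tested. The 3 FMD and 3 CTR libraries did not overlap in either population for 144 of the 324 higher and 119 of the 190 lower genes, and 1.65% and 1.67% of all genes tested were separated in that way. Members were chosen for a diet difference in the same libraries, so nothing is read from this contrast. Genes named below for their fold change or small p were also taken only from those without such overlap. Their separation was thus a condition and not a finding. Of the genes that passed, 2.1% of those tested were higher and 1.23% lower in both populations.

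The higher genes were of 2 kinds by level. Those averaging under 10 CPM over the 12 libraries numbered 147, with median log2 fold changes of 3.61 in CD24-low and 1.03 in CD24-high cells. The other 177 had medians of 0.75 and 0.38. The lower genes were more even, with medians of -1.08 and -0.68 for the 92 under 10 CPM and of -0.73 and -0.43 for the 98 above it. A mean under 1 CPM in the CTR libraries was found in 107 of the 324 higher genes, 8 of the 190 lower genes and 2412 of all 15461. A gene near 0 in the CTR libraries can be kept by the count filter through an FMD group and can then hardly fall.

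**Figure D2:**
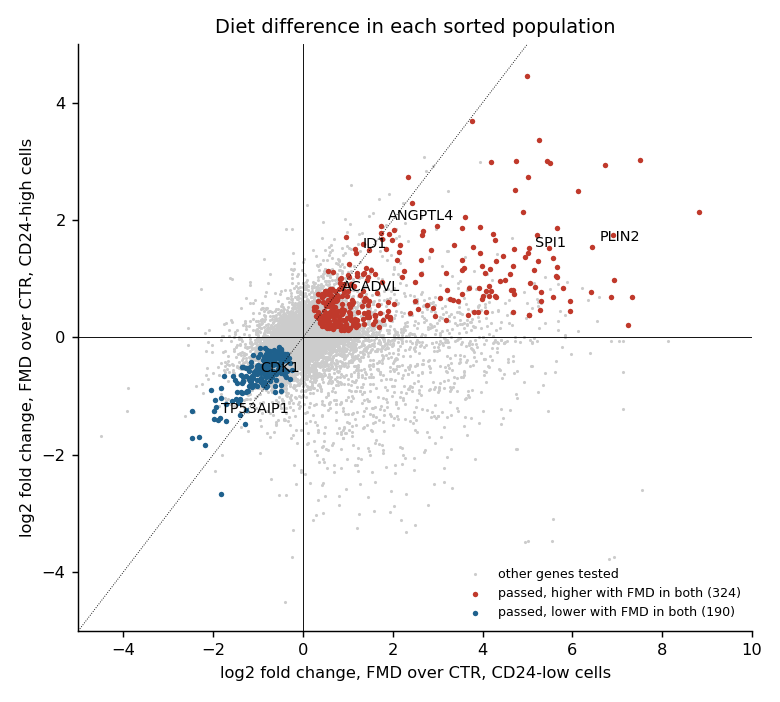
Log2 fold change, FMD over CTR, of each gene tested in CD24-low (x axis) and CD24-high cells (y axis), with the 324 higher genes in red, the 190 lower genes in blue and other genes in grey. The lower genes lie near the dotted line of equal change, and many higher genes lie far to the right of it; 4 other genes fall outside the axes.

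How many genes passed depended on single libraries. In place of 532 it was 48 when FMD_LO replicate 2 was left out, 52 for CTR_LO replicate 1, 68 for FMD_LO replicate 1, 115 for CTR_LO replicate 3 and 148 for CTR_LO replicate 2. It was 238 for FMD_HI replicate 1, 248 for FMD_LO replicate 3 and 260 for CTR_HI replicate 1. Leaving out CTR_HI replicate 3 gave 1085, CTR_HI replicate 2 gave 1234, FMD_HI replicate 3 gave 1259 and FMD_HI replicate 2 gave 586. Only 24 of the 324 higher genes and 11 of the 190 lower ones passed in each of these 12 comparisons. The lists below are also given with libraries of one diet and number treated as a block in limma voom, at an estimated correlation of 0.29, since such libraries may share a tumour. With this block 200 genes passed, 27 of them lower in both populations, against 1060 in limma voom without it. With the 6 CD24-high libraries alone no gene passed in edgeR, though 874 had an unadjusted p below 0.05. Just inside the threshold lay MOAP1 with a log2 fold change of 0.72, SAMSN1 with 1.54 and ZC3H12C with 0.77, and just outside it HIST1H2BN with 1.93, ST7 with 0.42 and GRIPAP1 with 0.34.

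Of the genes of bone morphogenetic protein (BMP) signalling and its ID targets, 5 of 29 tested rose and 0 fell. Over all genes tested the shares were 2.21% and 1.23%. The median log2 fold change of the list was 0.59, against -0.01 over all genes, and its median was 0.82 in CD24-low but 0.04 in CD24-high cells. The 5 were ID1, ID3, ATOH8, SMAD6 and SMAD7, and each had a log2 fold change of at least 1.08 in both populations. With the block, ID1, ID3 and SMAD7 passed, and ATOH8 and SMAD6 did not (adjusted p up to 0.0593). When counts of both populations were added, ID1 alone of the 5 passed (adjusted p up to 0.145).

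ID1 (chromosome 20, 31605289 to 31606510) encodes an inhibitor of basic helix-loop-helix transcription factors and is a direct target of BMP-activated SMADs. It had 266, 295 and 237 CPM in FMD_LO and 314, 295 and 297 CPM in FMD_HI, against 102, 152 and 99.3 CPM in CTR_LO and 96.3, 151 and 88.7 CPM in CTR_HI. The lowest FMD library thus lay well above the highest CTR library. Its log2 fold change was 1.30 ± 0.15 (SE, adjusted p = 0.00186), with 1.18 in CD24-low and 1.43 in CD24-high cells. It passed without any single library, where its adjusted p was at most 0.0133. In CD24-high cells the summed leukocyte markers were 56.64, 48.48 and 76.6 CPM in FMD_HI, against 39.52, 54.49 and 38.67 CPM in CTR_HI. Their part in the difference of ID1 was not tested.

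ID3 (chromosome 1, 23557926 to 23559501), a second inhibitor of the same family, had 610, 705 and 360 CPM in FMD_LO and 565, 578 and 321 CPM in FMD_HI, against 209, 327 and 196 CPM in CTR_LO and 159, 284 and 242 CPM in CTR_HI. The libraries were separated within each population, with FMD replicate 3 lowest among the FMD libraries in both. Its log2 fold change was 1.15 ± 0.22 (adjusted p = 0.0263). It lost its call without FMD_LO replicate 1 or 2 or CTR_LO replicate 1 or 3, with an adjusted p of up to 0.0674.

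ATOH8 (chromosome 2, 85753991 to 85791383), a helix-loop-helix transcription factor, had 16.2, 13.7 and 6.46 CPM in FMD_LO and 13.2, 13.8 and 5.36 CPM in FMD_HI, against 5.22, 4.33 and 3.48 CPM in CTR_LO and 3.63, 3.34 and 4.55 CPM in CTR_HI. FMD replicate 3 again stood nearest the CTR libraries in both populations. The log2 fold change was 1.48 ± 0.26 (adjusted p = 0.0183), with 1.47 in CD24-low and 1.49 in CD24-high cells. Of the comparisons without 1 library, it lost its call in that without FMD_LO replicate 2 (adjusted p = 0.0525), and it passed in 2 of 6 without both libraries of a number (adjusted p up to 0.0969). The inhibitory SMADs, which dampen the same receptors, had log2 fold changes of 1.21 ± 0.26 for SMAD6 (adjusted p = 0.0356) and 1.34 ± 0.28 for SMAD7 (adjusted p = 0.0347). Both lost their calls without FMD_LO replicate 1 or 2, FMD_HI replicate 1, CTR_LO replicate 1 or 3 or CTR_HI replicate 1, and SMAD7 also without CTR_LO replicate 2, with adjusted p-values of up to 0.0898 and 0.0861. ID2, of the same family, did not pass (log2 fold change 1.71 ± 0.48, adjusted p = 0.0705), with CTR replicate 2 at 102 CPM in CD24-low and 113 CPM in CD24-high cells and the other CTR libraries at 19.5 to 36.1 CPM.

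Genes of fatty acid use passed in one direction, with 7 of 38 tested members of the fatty acid oxidation and PPAR list higher and 0 lower. Over all genes tested 2.21% were higher and 1.23% lower. The list as a whole was not shifted, with a median log2 fold change of 0.08 against -0.01 over all genes. The 6 members described here all passed with the block (adjusted p up to 0.0446), and 2 of the 6, ACADVL and PLIN2, passed when counts of both populations were added (adjusted p up to 0.195). The muscle, fat and nerve marker sums given above were highest in FMD_LO and overlapped between diets in CD24-high cells, and their part in these differences was not tested. The members described here act at different steps. CPT1A and SLC25A20 bring long-chain fatty acids into mitochondria, ACADVL starts their oxidation, PDK4 closes pyruvate dehydrogenase to glucose carbon, ANGPTL4 inhibits lipoprotein lipase and PLIN2 coats lipid droplets.

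ACADVL (chromosome 17, 7217125 to 7225266), the very long-chain acyl-CoA dehydrogenase, had 308, 364 and 248 CPM in FMD_LO and 307, 344 and 257 CPM in FMD_HI, against 161, 193 and 214 CPM in CTR_LO and 152, 221 and 188 CPM in CTR_HI. All 6 FMD libraries lay above all 6 CTR libraries. Its log2 fold change was 0.69 ± 0.12 (adjusted p = 0.0183), with 0.70 in CD24-low and 0.69 in CD24-high cells. It lost its call without FMD_LO replicate 2 or CTR_LO replicate 1, at an adjusted p of up to 0.0548.

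CPT1A (chromosome 11, 68754620 to 68844277), the carnitine palmitoyltransferase that controls entry of fatty acids, had 57.2, 47.2 and 37.3 CPM in FMD_LO and 77.1, 56 and 44.5 CPM in FMD_HI, against 19.4, 31.2 and 29.2 CPM in CTR_LO and 20.4, 34.8 and 34.1 CPM in CTR_HI. The groups did not overlap in either population, and replicate 3 was the lowest of the FMD libraries in both. The log2 fold change was 0.91 ± 0.18 (adjusted p = 0.0281). PDK4 (chromosome 7, 95583499 to 95596516) had 9.79, 12.8 and 5.91 CPM in FMD_LO and 4.72, 6.21 and 2.62 CPM in FMD_HI, against 1.49, 3.8 and 1.22 CPM in CTR_LO and 0.982, 2.03 and 1.95 CPM in CTR_HI. Its groups were also separated within each population, with a log2 fold change of 1.80 ± 0.34 (adjusted p = 0.0268). Both genes lost their calls without FMD_LO replicate 1, FMD_LO replicate 2 or CTR_LO replicate 1, with adjusted p-values of up to 0.0707 for CPT1A and 0.065 for PDK4.

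ANGPTL4 (chromosome 19, 8364155 to 8374370) had 103, 118 and 65.6 CPM in FMD_LO and 106, 141 and 109 CPM in FMD_HI, against 11.6, 45.2 and 29.1 CPM in CTR_LO and 12.7, 59.3 and 23.4 CPM in CTR_HI. It was separated in both populations, but CTR replicate 1 was low and CTR replicate 2 high in each of them. Its log2 fold change was 1.82 ± 0.40 (adjusted p = 0.0416). It kept its call only without FMD_HI replicate 3, CTR_HI replicate 2 or CTR_HI replicate 3 and lost it without any of the other 9 libraries, with an adjusted p of up to 0.103. SLC25A20, the carnitine-acylcarnitine carrier, had a log2 fold change of 0.64 ± 0.12 (adjusted p = 0.0186), with 0.86 in CD24-low and 0.42 in CD24-high cells. It lost its call without FMD_LO replicate 2 or CTR_LO replicate 1 (adjusted p up to 0.0548).

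PLIN2 passed (adjusted p = 0.0396), but its difference lay mostly in CD24-low cells, with 87.8, 102 and 59.6 CPM in FMD_LO and 1.51, 0.72 and 1.69 CPM in FMD_HI, against 0.456, 2.18 and 0.386 CPM in CTR_LO and 0.238, 0.896 and 0.258 CPM in CTR_HI. FMD_HI overlapped CTR_HI, and the 2 populations differed in their diet difference by 4.90 on the log2 scale (adjusted p = 0.0253). PLIN2 is abundant in lipid-laden macrophages, and like the summed leukocyte markers given above it was highest in FMD_LO. The part of those markers in the PLIN2 difference was not tested. It lost its call without any FMD_LO or CTR_LO library, FMD_HI replicate 1 or CTR_HI replicate 1 (adjusted p up to 0.112). ACSL1, an acyl-CoA synthetase of the same list, did not pass (log2 fold change 0.66 ± 0.18, adjusted p = 0.0574).

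**Figure D3:**
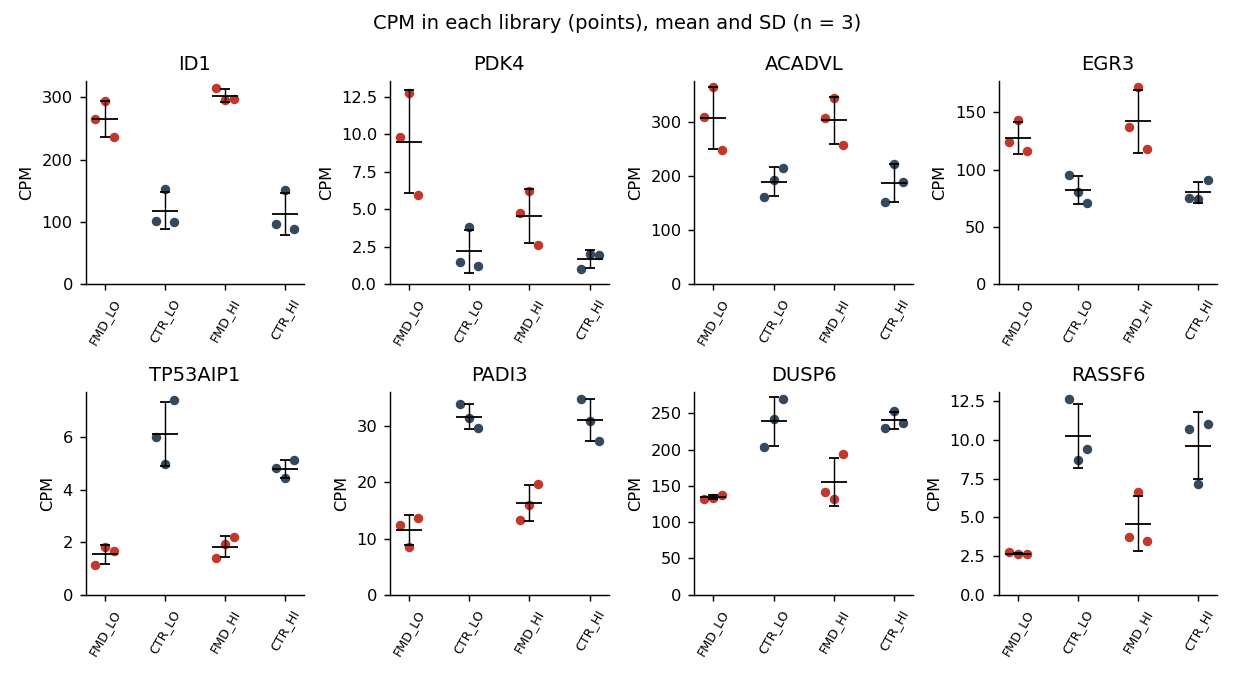
CPM of 8 genes in each library (points), with the mean and SD of each group of 3 as bars, FMD groups in red to the left of their CTR groups in dark blue. ID1, ACADVL and EGR3 are higher and TP53AIP1, PADI3, DUSP6 and RASSF6 lower in all 6 FMD libraries than in all 6 CTR libraries, and PDK4 is separated within each population.

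Further genes rose in both populations. EGR3, an immediate early zinc finger transcription factor, had 124, 143 and 116 CPM in FMD_LO and 137, 172 and 118 CPM in FMD_HI, against 95.2, 80.2 and 70.9 CPM in CTR_LO and 75.2, 74.2 and 90.5 CPM in CTR_HI. The 6 FMD libraries lay above the 6 CTR libraries (log2 fold change 0.74 ± 0.11, adjusted p = 0.00877). Of 35 immediate early genes tested, EGR3 was 1 of 2 that rose, and DUSP6, given below, was the 1 that fell. Of all genes tested, 2.21% rose and 1.23% fell. The other that rose was SOCS3, an inhibitor of cytokine receptors (adjusted p = 0.0424), while FOS (-0.04 ± 0.12) and EGR1 (0.13 ± 0.12) did not pass. Unlike EGR3, SOCS3 overlapped between diets in CD24-low cells, with 434.9 CPM in FMD_LO replicate 2 and 439.9 CPM in CTR_LO replicate 2. SOCS3 lost its call without any FMD_LO library, CTR_LO replicate 1 or 3 or CTR_HI replicate 1 (adjusted p up to 0.11), nor did it pass with the block (adjusted p = 0.055).

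RAB31 (chromosome 18, 9708301 to 9862551), a small GTPase of vesicle traffic, had 144, 150 and 103 CPM in FMD_LO and 127, 101 and 116 CPM in FMD_HI, against 69.8, 83.1 and 65.3 CPM in CTR_LO and 67.2, 79.5 and 64 CPM in CTR_HI. Every FMD library was above every CTR library, with a log2 fold change of 0.78 ± 0.11 (adjusted p = 0.00756). MMD (chromosome 17, 55392622 to 55421835), a membrane protein named for its rise in maturing macrophages, had 10.4, 10.5 and 10.4 CPM in FMD_LO and 10.2, 8.49 and 8.16 CPM in FMD_HI, against 6.47, 6.99 and 6.89 CPM in CTR_LO and 6.16, 5.86 and 5.87 CPM in CTR_HI. Its difference was small but the groups were narrow, at 0.60 ± 0.09 (adjusted p = 0.00827). EGR3, RAB31 and MMD each passed without any single library. Without both libraries of a number EGR3 passed in 5 of 6 comparisons and RAB31 and MMD in 4 (adjusted p up to 0.0692). MMD did not pass with counts of both populations added.

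FTH1 (chromosome 11, 61964285 to 61967634), the heavy chain of the iron store ferritin, had 9652, 9351 and 7756 CPM in FMD_LO and 8181, 8147 and 7435 CPM in FMD_HI, against 3613, 5682 and 4851 CPM in CTR_LO and 3637, 6322 and 3836 CPM in CTR_HI. It was the most abundant gene described here and was separated over all 12 libraries, although CTR replicate 2 was the highest CTR library in both populations. The log2 fold change was 0.85 ± 0.15 (adjusted p = 0.0181), lost among the comparisons without 1 library in that without FMD_LO replicate 2 (adjusted p = 0.0525), and it passed in 2 of 6 without both libraries of a number (adjusted p up to 0.0918). FTH1 has many processed pseudogenes, and how reads shared with them were counted is not given in the sources used here. Of 22 NRF2 antioxidant genes tested, FTH1 was the 1 that passed, where 3.44% of all genes did.

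NNMT (chromosome 11, 114257806 to 114313536), which methylates nicotinamide, had 166, 186 and 185 CPM in FMD_LO and 179, 229 and 228 CPM in FMD_HI, against 140, 138 and 147 CPM in CTR_LO and 131, 130 and 118 CPM in CTR_HI. The values did not overlap between diets, and the difference was 0.34 in CD24-low and 0.74 in CD24-high cells, in contrast to most higher genes. Its log2 fold change was 0.54 ± 0.10 (adjusted p = 0.0186), and it lost its call without FMD_LO replicate 2 or CTR_LO replicate 1 (adjusted p up to 0.0548). HCAR2, the receptor of the ketone body beta-hydroxybutyrate, was looked at after its values were seen. It had 133, 104 and 100 CPM in FMD_LO and 41.7, 54.7 and 60.8 CPM in FMD_HI, against 38, 45.4 and 38 CPM in CTR_LO and 29.7, 40.4 and 31.7 CPM in CTR_HI. It was separated in each population (log2 fold change 1.05 ± 0.17, adjusted p = 0.0128) and passed without any single library. It passed in 3 of 6 comparisons without both libraries of a number (adjusted p up to 0.0757). Its near-identical neighbour HCAR3 may share reads with it, so the 2 genes are uncertain as single genes.

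Genes of the hypoxia response rose in 5 of 35 cases and fell in 0, where 2.21% and 1.23% of all genes did. With the block none of the 5 passed (adjusted p = 0.0565 to 0.108). PGK1 alone of the 5 passed with counts of both populations added (adjusted p up to 0.156). The list had a median log2 fold change of 0.46, and 29 members had a positive and 0 a negative sign in both populations, against 4447 positive and 5099 negative among all genes tested. The 5 were BNIP3L, a mitophagy receptor (0.74 ± 0.16, adjusted p = 0.0316), PGK1, a glycolytic kinase (0.74 ± 0.16, adjusted p = 0.0346), PFKFB3, which drives glycolysis (0.73 ± 0.17, adjusted p = 0.0436), MXI1, an antagonist of MYC (0.64 ± 0.16, adjusted p = 0.0464), and EGLN1, the oxygen-sensing prolyl hydroxylase (0.46 ± 0.11, adjusted p = 0.0473). PGK1 had 1018, 1061 and 841 CPM in FMD_LO and 608, 483 and 642 CPM in FMD_HI, against 378, 488 and 435 CPM in CTR_LO and 456, 542 and 402 CPM in CTR_HI. It was separated in CD24-low cells only, and its diet difference was larger there by 0.86 on the log2 scale (adjusted p = 0.0432). The best-known targets of the pathway did not pass, with VEGFA, an angiogenic factor, at 0.10 ± 0.14 and CA9, a carbonic anhydrase, at 0.84 ± 0.36 (adjusted p = 0.171). Each of the 5 lost its call without FMD_LO replicate 1, FMD_LO replicate 2 or CTR_LO replicate 1, and at most 7 of the 12 comparisons without a library kept one of them. The libraries without which a call was lost also included CTR_LO replicate 3 for all 5. To these came FMD_LO replicate 3 for PGK1 and MXI1, FMD_HI replicate 1 for all but BNIP3L, FMD_HI replicate 2 for PFKFB3, CTR_LO replicate 2 for all but BNIP3L and CTR_HI replicate 1 for all but PGK1.

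Of the lysosome and autophagy genes, 5 of 37 rose and 0 fell, and 26 were positive in both populations, with a median log2 fold change of 0.20. Over all 15461 genes 2.21% rose, 1.23% fell and 4447 were positive in both. Of the 5, ATP6V0D2 alone passed with the block (adjusted p up to 0.088). WIPI1, ATP6V0D2 and MAP1LC3A passed with counts of both populations added (adjusted p up to 0.183 for the 5). WIPI1, which binds the lipid of forming autophagosomes, had 43.9, 43 and 36.2 CPM in FMD_LO and 22.2, 18.1 and 19.8 CPM in FMD_HI, against 19.8, 16.8 and 11.3 CPM in CTR_LO and 13.8, 13.6 and 17.5 CPM in CTR_HI. Groups were separated in each population, with log2 fold changes of 1.36 in CD24-low and 0.42 in CD24-high cells (0.89 ± 0.19 on average, adjusted p = 0.0309). It lost its call without FMD_LO replicate 1 or 2 or CTR_LO replicate 1 or 2 (adjusted p up to 0.0782). The others were MAP1LC3A, which encodes a protein of the autophagosome membrane (1.00 ± 0.23, adjusted p = 0.0415), BECN1, a subunit of the lipid kinase that starts autophagy (0.49 ± 0.11, adjusted p = 0.0344), CTSA, a lysosomal protease (0.40 ± 0.10, adjusted p = 0.0412), and ATP6V0D2, a proton pump subunit of osteoclasts and macrophages (adjusted p = 0.0383). These 4 lost their calls without any of the 3 FMD_LO or 3 CTR_LO libraries, and ATP6V0D2 also without FMD_HI replicate 1, with adjusted p-values of up to 0.0945 to 0.112. The diet difference of MAP1LC3A, BECN1 and ATP6V0D2 was larger in CD24-low cells, by 1.25, 0.59 and 4.94 on the log2 scale (adjusted p = 0.024, 0.0382 and 0.0163).

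Leukocyte genes also rose, some of them with almost no counts in the CTR libraries. Of 13 macrophage and pan-leukocyte markers tested 5 rose and 0 fell, namely SPI1, ITGAM, LYZ, MRC1 and CD37, and 12 were positive in both populations. Their median log2 fold change was 3.53 in CD24-low and 0.75 in CD24-high cells. The count filter kept these 13 of the 20 markers in the files. It works by group, so a marker near 0 elsewhere can be kept through FMD_LO and can then hardly fall. The direction of these counts is therefore partly set by the filter. Among the 8 genes that passed in 12 comparisons without a library, 6 without a pair of libraries and 10 other settings, 4 were of this low-level kind, namely IKZF1, SASH3, F13A1 and SLC28A2. ID1, TP53AIP1 and PADI3 were also among the 8.

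F13A1 (chromosome 6, 6144084 to 6320662), the coagulation factor XIII subunit made by macrophages, had 6.35, 2.59 and 6.4 CPM in FMD_LO and 0.661, 0.93 and 1.17 CPM in FMD_HI, against 0.0829, 0.168 and 0.0891 CPM in CTR_LO and 0.0297, 0.276 and 0.0573 CPM in CTR_HI. The diets were separated in both populations, and so were the 2 FMD groups. The pooled counts were 97 in FMD_HI against 11 in CTR_HI, a ratio of 8.07 (95% exact interval 4.32 to 16.7, counting error only), and 269 in FMD_LO against 12 in CTR_LO, a ratio of 45.2 (25.4 to 88.5). Its adjusted p was 0.00359. IKZF1, a zinc finger factor of blood cells, had 144 counts in FMD_LO against 4 in CTR_LO and 14 in FMD_HI against 2 in CTR_HI, with ratios of 72.5 (27.7 to 270) and 6.41 (1.47 to 58.1). SASH3, a lymphoid adaptor protein, had 114 in FMD_LO against 7 in CTR_LO and 17 in FMD_HI against 2 in CTR_HI, with ratios of 32.8 (15.4 to 83.4) and 7.78 (1.85 to 69.4). Both had an adjusted p of 0.00303 and were looked at after their values were seen. SLC28A2, a nucleoside transporter, had 15.2, 13.2 and 10.9 CPM in FMD_LO and at most 0.336 CPM in every other library. Its pooled counts were 682 in FMD_LO against 13 in CTR_LO, a ratio of 106 (61.4 to 200), and 11 in FMD_HI against 1 in CTR_HI, a ratio of 10.1 (1.46 to 433), with an adjusted p of 0.00186. Fitted fold changes of genes this scarce depend on the prior count and are not given.

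SLAMF8 (chromosome 1, 159826873 to 159837492), a receptor of myeloid cells, had 5.7, 5.48 and 3.53 CPM in FMD_LO and 3.65, 2.37 and 2.29 CPM in FMD_HI, against 0.601, 0.873 and 0.921 CPM in CTR_LO and 1.07, 0.793 and 1.43 CPM in CTR_HI. All FMD libraries exceeded all CTR libraries (log2 fold change 1.96 ± 0.28, adjusted p = 0.00756), and SLAMF8 also passed without any single library. It passed in 5 of 6 comparisons without both libraries of a number (adjusted p up to 0.0632). CD37, a tetraspanin of leukocytes, had 309 counts in FMD_LO against 1 in CTR_LO, a ratio of 622 (95% exact interval 111 to 24700), and 11 in FMD_HI against 2 in CTR_HI, a ratio of 5.03 (1.1 to 46.7). Its values overlapped between diets in CD24-high cells, and it did not pass with the block (adjusted p = 0.0548). SPI1, the myeloid factor PU.1, and ITGAM, an integrin chain of myeloid cells, had a larger diet difference in CD24-low cells, by 3.58 and 3.39 on the log2 scale (adjusted p = 0.00443 and 0.00483). SPI1, ITGAM, LYZ, MRC1 and CD37 are themselves among the summed leukocyte markers given above, so nothing is read from their moving with that sum. Among the FMD_HI libraries SLAMF8 was lowest in replicate 3, where the sum was highest, at 76.6 CPM. The part of leukocyte markers in the differences of SLAMF8 and the low-level genes was not tested. SPI1, ITGAM, LYZ, a lysozyme, and MRC1, the mannose receptor of macrophages, had adjusted p-values of 0.0297 to 0.0415. All 4 lost their calls without FMD_LO replicate 1 or 2 or CTR_LO replicate 1 or 3. SPI1, ITGAM and MRC1 also did so without FMD_LO replicate 3, SPI1, ITGAM and LYZ without CTR_LO replicate 2, and ITGAM without CTR_HI replicate 1, with adjusted p-values of up to 0.113.

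Among the lower genes, TP53AIP1 (chromosome 11, 128934731 to 128942871) had the smallest p. It encodes a mitochondrial protein of p53-dependent apoptosis. It had 1.13, 1.82 and 1.68 CPM in FMD_LO and 1.39, 1.92 and 2.18 CPM in FMD_HI, against 6.01, 4.97 and 7.42 CPM in CTR_LO and 4.82, 4.45 and 5.12 CPM in CTR_HI. The highest FMD library was below the lowest CTR library by a wide margin. The log2 fold change was -1.67 ± 0.19 (adjusted p = 0.00186), with -1.99 in CD24-low and -1.39 in CD24-high cells, and at most 0.0133 without any single library. The p53 targets as a list did not move with it, with a median of -0.05. CDKN1A, the cell cycle inhibitor most used as a p53 readout, had 0.25 ± 0.16 and MDM2, the ubiquitin ligase of p53, 0.23 ± 0.10. Of the 25 tested, 2 fell and 0 rose, where 1.23% and 2.21% of all genes did. The second of the 2 was PERP, a desmosome protein (-0.52 ± 0.13, adjusted p = 0.0486), which lost its call without any FMD_LO or CTR_LO library, FMD_HI replicate 1 or CTR_HI replicate 1 (adjusted p up to 0.129) and did not pass with the block (adjusted p = 0.108).

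PADI3 (chromosome 1, 17249098 to 17284233), which turns arginine into citrulline in hair follicle and epidermal proteins, had 12.4, 8.54 and 13.7 CPM in FMD_LO and 13.3, 16 and 19.7 CPM in FMD_HI, against 34, 31.4 and 29.7 CPM in CTR_LO and 34.8, 31 and 27.4 CPM in CTR_HI. Again all FMD libraries were below all CTR libraries, with the lowest in FMD_LO. PADI3 had a log2 fold change of -1.19 ± 0.15 (adjusted p = 0.00303). RASSF6 (chromosome 4, 73571550 to 73620631), a Ras-association protein tied to apoptosis and the Hippo kinases, had 2.73, 2.65 and 2.6 CPM in FMD_LO and 3.71, 6.63 and 3.46 CPM in FMD_HI, against 12.6, 8.73 and 9.45 CPM in CTR_LO and 10.7, 7.14 and 11.1 CPM in CTR_HI. FMD_HI replicate 2 came close to the lowest CTR library without reaching it (-1.49 ± 0.22, adjusted p = 0.00756).

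DUSP6 (chromosome 12, 89347235 to 89352501), the phosphatase that ERK signalling induces to switch ERK off, had 133, 134 and 138 CPM in FMD_LO and 142, 131 and 193 CPM in FMD_HI, against 204, 243 and 270 CPM in CTR_LO and 230, 254 and 237 CPM in CTR_HI. Of the FMD libraries, 5 lay between 131 and 142 CPM, and FMD_HI replicate 3 stood above them but below every CTR library. DUSP6 had a log2 fold change of -0.73 ± 0.11 (adjusted p = 0.00756). Other feedback genes of that pathway did not pass, with DUSP4, a related phosphatase, at -0.17 ± 0.19 and SPRY4, a receptor inhibitor, at 0.25 ± 0.17.

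DZIP3 (chromosome 3, 108589510 to 108694840), a ubiquitin ligase, had 6.59, 8.12 and 7.38 CPM in FMD_LO and 7.08, 8.25 and 7.04 CPM in FMD_HI, against 12.7, 10.5 and 10.4 CPM in CTR_LO and 12.3, 12.4 and 12.2 CPM in CTR_HI. ZSCAN31 (chromosome 6, 28324737 to 28356271), a zinc finger protein, had 21.1, 19.1 and 22.1 CPM in FMD_LO and 25.6, 29 and 25.7 CPM in FMD_HI, against 46.9, 42.5 and 37.8 CPM in CTR_LO and 38.4, 35.2 and 38.4 CPM in CTR_HI. Both were separated over all 12 libraries, and ZSCAN31 was lower in FMD_LO than in FMD_HI. Their log2 fold changes were -0.67 ± 0.10 for DZIP3 and -0.75 ± 0.11 for ZSCAN31 (adjusted p = 0.00756 each). PADI3, RASSF6, DUSP6, DZIP3 and ZSCAN31 passed without any single library. Without both libraries of a number PADI3 passed in 6 of 6 comparisons, RASSF6 and ZSCAN31 in 5 and DUSP6 and DZIP3 in 4 (adjusted p up to 0.078).

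SESN3 (chromosome 11, 95165513 to 95232475), a sestrin that restrains mTORC1 and is induced by FOXO factors, had 144, 136 and 130 CPM in FMD_LO and 203, 203 and 153 CPM in FMD_HI, against 270, 229 and 258 CPM in CTR_LO and 265, 211 and 312 CPM in CTR_HI. The diets did not overlap (log2 fold change -0.69 ± 0.12, adjusted p = 0.0181), and among the comparisons without 1 library the call was lost in that without FMD_LO replicate 2 (adjusted p = 0.0525). It passed in 2 of 6 without both libraries of a number (adjusted p up to 0.0757). Of 33 mTORC1 and AMPK genes, SESN3 was the 1 that passed, where 3.44% of all genes did. MAP7D2 (chromosome X, 20006713 to 20116907), a microtubule-associated protein, had 1.01, 0.471 and 0.705 CPM in FMD_LO and 0.661, 0.93 and 1.66 CPM in FMD_HI, against 1.99, 3.19 and 2.08 CPM in CTR_LO and 2.65, 4.1 and 2.12 CPM in CTR_HI. It too was separated throughout (-1.56 ± 0.28, adjusted p = 0.0183) and was lost, among the comparisons without 1 library, in that without FMD_LO replicate 2 (adjusted p = 0.0525). It passed in 3 of 6 without both libraries of a number (adjusted p up to 0.0864).

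All 35 G2/M genes tested had a negative difference in both populations, as did 5099 of all 15461 genes. Of the 35, 8 passed as lower, where 1.23% of all genes did. None of the 8 passed with the block (adjusted p = 0.057 to 0.168). HMMR alone of the 8 passed with counts of both populations added (adjusted p up to 0.145). The median log2 fold change of the 35 genes was -0.65, with -0.69 in CD24-low and -0.60 in CD24-high cells. The difference between these 2 medians was not tested. The 33 G1/S and replication genes had a median of -0.35, and 32 were negative in both populations, but 0 passed. Unadjusted p-values below 0.05 were found for 3932 of all genes.

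The 8 were CDK1, the kinase that starts mitosis, the mitotic kinases AURKA and TTK, the centromere histone CENPA, the kinetochore motor CENPE, the ubiquitin-conjugating enzyme UBE2C of mitotic exit, the spindle protein HMMR and the cytokinesis protein ANLN. CDK1 (chromosome 10, 60778331 to 60794852) had 13.8, 11.1 and 14 CPM in FMD_LO and 19.5, 13.9 and 24.4 CPM in FMD_HI, against 23.8, 23.4 and 36.5 CPM in CTR_LO and 42.6, 28.2 and 22.5 CPM in CTR_HI. FMD_HI replicate 3 lay above CTR_HI replicate 3, whereas the CD24-low groups did not overlap (-0.89 ± 0.19, adjusted p = 0.0333). HMMR (chromosome 5, 163460632 to 163491941) had 5.22, 3.59 and 7.76 CPM in FMD_LO and 5.95, 5.55 and 8.11 CPM in FMD_HI, against 8.77, 12.8 and 12.5 CPM in CTR_LO and 14.5, 12.3 and 7.96 CPM in CTR_HI. Here as well FMD_HI replicate 3 and CTR_HI replicate 3 overlapped (-0.92 ± 0.20, adjusted p = 0.0324). CENPE (chromosome 4, 103105811 to 103198343) had 7.3, 9.07 and 17.7 CPM in FMD_LO and 12.5, 9.87 and 16.7 CPM in FMD_HI, against 18.4, 20.6 and 20.5 CPM in CTR_LO and 28.7, 22.1 and 18.4 CPM in CTR_HI. It alone of the 8 was separated in both populations (-0.81 ± 0.20, adjusted p = 0.0476).

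The other 5 had log2 fold changes of -0.82 ± 0.20 for AURKA, -0.94 ± 0.22 for TTK, -0.98 ± 0.24 for CENPA, -0.95 ± 0.23 for UBE2C and -0.84 ± 0.21 for ANLN, with adjusted p-values of 0.0418 to 0.0488. None of the 8 calls held in all comparisons without a library. All 8 were lost without FMD_LO replicate 1 or 2, FMD_HI replicate 1, any CTR_LO library or CTR_HI replicate 1. All but CENPE and HMMR were lost without FMD_LO replicate 3, all but CDK1 and HMMR without FMD_HI replicate 2, and CENPA and UBE2C also without CTR_HI replicate 2, with adjusted p-values of up to 0.0915 for HMMR and 0.127 for UBE2C. The proliferation markers MKI67 (-0.70 ± 0.21, adjusted p = 0.0779) and TOP2A, a topoisomerase of dividing cells (-0.64 ± 0.19, adjusted p = 0.068), did not pass.

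Promoters of mitotic genes share short elements that repress them outside G2 and M, the cell cycle homology region (TTTGAA), usually beside CCAAT boxes. Letters were searched on both strands in RefSeq windows of 250 bases before to 50 after each start (GRCh38.p14). TTTGAA was in 71.4% of 28 G2/M promoters in the table, 18.3% of the 153 of the lower genes, 14% of the 243 of the higher genes and 10.3% of all 11775. CCAAT was in 82.1% of the G2/M promoters, 34.6% of those of the lower genes, 36.6% of those of the higher genes and 36.6% of all. Of the mitotic genes that passed, 5 were in the table, and 4 of these held TTTGAA. These 4 are shown because they carry the element that the group shares, as the 250 bases before the start on the plus strand, with TTTGAA and CCAAT or their reverse complements in capitals. CDK1 lies at chr10:60778081-60778330, CENPA at chr2:26785806-26786055, HMMR at chr5:163460382-163460631 and ANLN at chr7:36389612-36389861.
CDK1: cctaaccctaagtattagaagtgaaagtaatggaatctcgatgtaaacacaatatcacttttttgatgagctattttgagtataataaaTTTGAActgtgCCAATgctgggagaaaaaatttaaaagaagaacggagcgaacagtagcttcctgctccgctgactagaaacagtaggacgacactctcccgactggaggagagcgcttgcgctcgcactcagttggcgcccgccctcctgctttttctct
CENPA: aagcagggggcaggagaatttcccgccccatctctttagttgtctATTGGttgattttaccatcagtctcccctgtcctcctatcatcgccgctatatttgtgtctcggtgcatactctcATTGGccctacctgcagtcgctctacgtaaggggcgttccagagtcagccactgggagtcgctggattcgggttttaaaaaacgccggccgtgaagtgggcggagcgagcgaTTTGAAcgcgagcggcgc
HMMR: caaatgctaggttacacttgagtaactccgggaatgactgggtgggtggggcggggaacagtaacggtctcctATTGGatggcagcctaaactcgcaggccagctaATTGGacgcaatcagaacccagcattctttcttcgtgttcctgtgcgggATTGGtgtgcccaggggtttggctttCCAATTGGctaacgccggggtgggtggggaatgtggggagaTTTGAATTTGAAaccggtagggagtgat
ANLN: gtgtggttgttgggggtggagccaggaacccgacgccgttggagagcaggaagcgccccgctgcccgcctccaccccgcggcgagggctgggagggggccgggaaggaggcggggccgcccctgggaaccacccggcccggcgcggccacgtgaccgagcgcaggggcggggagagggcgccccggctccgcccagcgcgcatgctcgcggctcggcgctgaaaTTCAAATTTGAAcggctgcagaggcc

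The other letters searched had these shares. The full cyclic AMP response element TGACGTCA was in 4.53% of the higher, 5.23% of the lower and 3.18% of all promoters, the hypoxia element core ACGTG in 25.9%, 26.1% and 26.3%, and the BMP-type SMAD element GGCGCC in 31.7%, 24.2% and 29.7%. The AP-1 element TGANTCA was in 7.82% of the higher, 7.84% of the lower and 4.98% of all promoters. CACGTG, which contains ACGTG, was in 11.5%, 10.5% and 9.71%. These shares are descriptions of letters in a window and no test of binding.

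Sterol synthesis genes were lower too, with 4 of 24 falling, 0 rising and 21 negative in both populations. Over all 15461 genes 1.23% fell, 2.21% rose and 5099 were negative in both. None of the 4 passed with the block (adjusted p = 0.0576 to 0.108). STARD4 alone of the 4 passed with counts of both populations added (adjusted p up to 0.191). The median log2 fold change of the list was -0.32, with -0.42 in CD24-low and -0.16 in CD24-high cells. STARD4 (chromosome 5, 111496033 to 111512535), a cholesterol carrier, had 17.2, 23.6 and 18.5 CPM in FMD_LO and 17.5, 15.5 and 18.5 CPM in FMD_HI, against 24.7, 27.5 and 23.7 CPM in CTR_LO and 25.9, 24.7 and 25.8 CPM in CTR_HI. FMD_LO replicate 2 lay just under the lowest CTR library and the other 5 FMD libraries well below it (-0.46 ± 0.10, adjusted p = 0.0293). The others were ACAT2, which joins acetyl-CoA units (-0.72 ± 0.17, adjusted p = 0.0451), HMGCS1, the cytosolic synthase of the mevalonate pathway (-0.53 ± 0.14, adjusted p = 0.0488), and FDFT1, squalene synthase (-0.50 ± 0.12, adjusted p = 0.0466). All 4 calls were lost without FMD_LO replicate 1, FMD_HI replicate 1 or any CTR_LO library. They were also all lost without CTR_HI replicate 1. All but STARD4 were lost without FMD_LO replicate 2, all but ACAT2 without FMD_LO replicate 3, ACAT2 and FDFT1 without FMD_HI replicate 2, HMGCS1 without FMD_HI replicate 3, and FDFT1 and HMGCS1 without CTR_HI replicate 2, at adjusted p-values of up to 0.0772 for STARD4 and 0.125 for FDFT1.

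Of 27 epithelial genes tested, 3 fell and 0 rose, with a median log2 fold change of -0.65 in CD24-low and -0.15 in CD24-high cells. Over all genes tested 1.23% fell and 2.21% rose. None of the 3 passed with the block (adjusted p = 0.0565 to 0.08) or with counts of both populations added (0.0742 to 0.175). They were DSP, which anchors keratins at desmosomes (-0.60 ± 0.12, adjusted p = 0.0286), SPINT2, an inhibitor of surface proteases (-0.88 ± 0.20, adjusted p = 0.0375), and KRT15, a basal keratin (-1.56 ± 0.37, adjusted p = 0.0473). KRT15 had 250, 124 and 422 CPM in FMD_LO and 207, 316 and 627 CPM in FMD_HI, against 1220, 1165 and 664 CPM in CTR_LO and 952, 1092 and 585 CPM in CTR_HI. CTR replicate 3 was low and FMD replicate 3 high in both populations, so that FMD_HI replicate 3 exceeded CTR_HI replicate 3. The laminin chains LAMA3 (-0.80 ± 0.19, adjusted p = 0.0415) and LAMB3 (-0.67 ± 0.14, adjusted p = 0.0316), which form the basement membrane anchor of epithelia, were the 2 of 36 collagen and matrix genes that fell, and 0 rose, and neither passed with the block (adjusted p up to 0.0937) or with counts added (up to 0.126). All 5 were lost without any FMD_LO or CTR_LO library, and all but DSP without FMD_HI replicate 1 or CTR_HI replicate 1. KRT15 was also lost without FMD_HI replicate 2 or CTR_HI replicate 2 and LAMA3 without CTR_HI replicate 3, and adjusted p-values reached 0.0815 for DSP and 0.122 for KRT15. The summed epithelial genes stood at 6828 to 10320 CPM in FMD_LO and 9864 to 15430 in FMD_HI, against 16250 to 17900 in CTR_LO and 14070 to 19350 in CTR_HI. The summed leukocyte and fibroblast markers were highest in FMD_LO, where the epithelial sum was lowest, and their part in the difference was not tested.

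**Figure D4:**
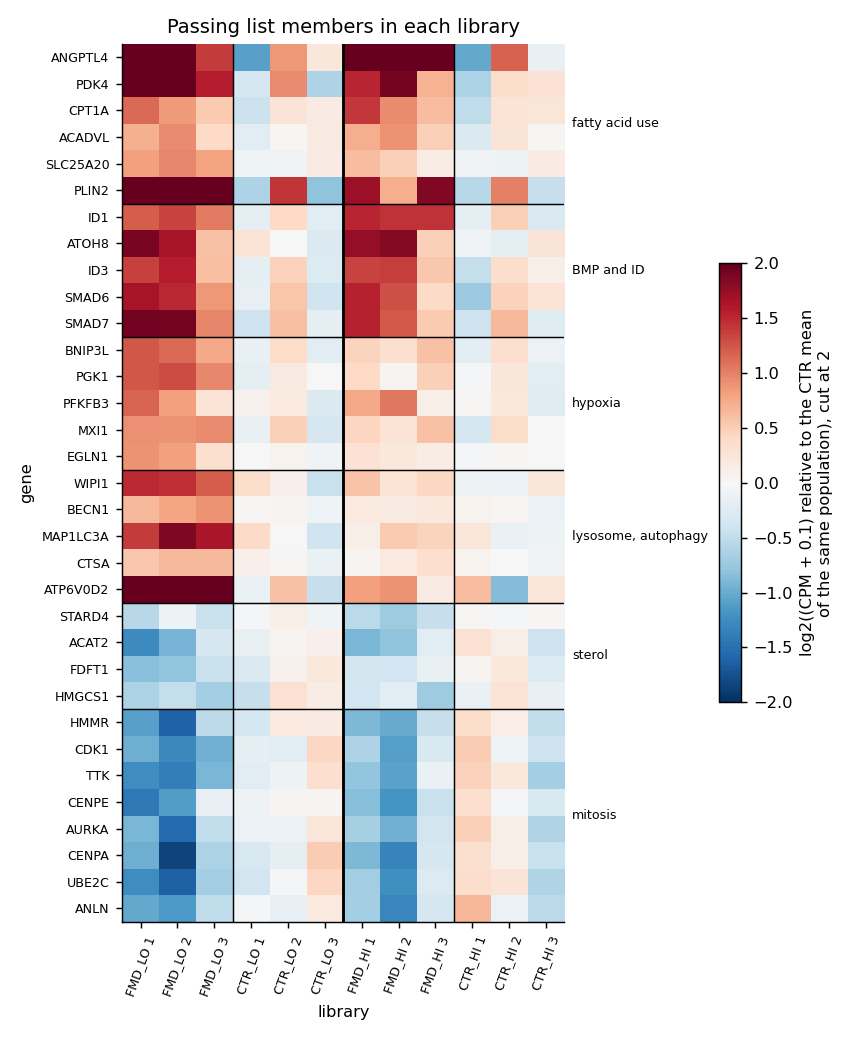
Log2 of (CPM + 0.1) relative to the CTR mean of the same population, cut at 2, for members of 6 gene lists that passed and are described (y axis) in the 12 libraries (x axis), FMD to the left of CTR in each population. Red is higher and blue lower; FMD replicate 3 is paler than replicates 1 and 2 for ID3, ATOH8, SMAD6 and SMAD7 in both populations.

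Several lists that a diet of this kind might be asked about had no member that passed. As 3.44% of all genes tested passed, lists of this size can be without one, and nothing is read from it. These were the circadian clock (21 genes tested), CREB factors and targets (19), the unfolded protein response (25), heat shock proteins (24), nuclear oxidative phosphorylation genes (35), cytosolic ribosomal proteins (50), proteasome subunits (32) and mesenchymal genes (31). Median log2 fold changes ran from -0.14 for oxidative phosphorylation to 0.28 for mesenchymal genes. Members positive and negative in both populations numbered 10 and 4 for the clock, 11 and 1 for CREB and 16 and 2 for the unfolded protein response. They numbered 6 and 9 for heat shock, 3 and 20 for oxidative phosphorylation and 2 and 12 for ribosomal proteins. For the proteasome they were 12 and 4, and for mesenchymal genes 13 and 1. All genes tested had 4447 and 5099. Of 25 glucocorticoid response genes 4 rose, namely CEBPB, PDK4, ZBTB16 and ANGPTL4, and 1 fell, SGK1, an ion transport kinase (-0.50 ± 0.12, adjusted p = 0.039). FKBP5, the response gene most used as a readout, had 0.10 ± 0.11. Of 25 insulin and IGF genes 1 rose, IGFBP4, an IGF-binding protein (adjusted p = 0.0281), where 2.21% of all genes did. IRS2, an insulin receptor substrate, did not pass (0.44 ± 0.19, adjusted p = 0.166). ZBTB16 lost its call without 8 of the 12 libraries, namely all FMD_LO and CTR_LO libraries, FMD_HI replicate 1 and CTR_HI replicate 1. CEBPB lost it without FMD_LO replicate 1 or 2 or CTR_LO replicate 1 or 3, and SGK1 and IGFBP4 without FMD_LO replicate 1 or 2, FMD_HI replicate 1, CTR_LO replicate 1 or 2 or CTR_HI replicate 1, SGK1 also without FMD_LO replicate 3. With the block, ZBTB16, SGK1 and IGFBP4 did not pass (adjusted p up to 0.0713).

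**Figure D5:**
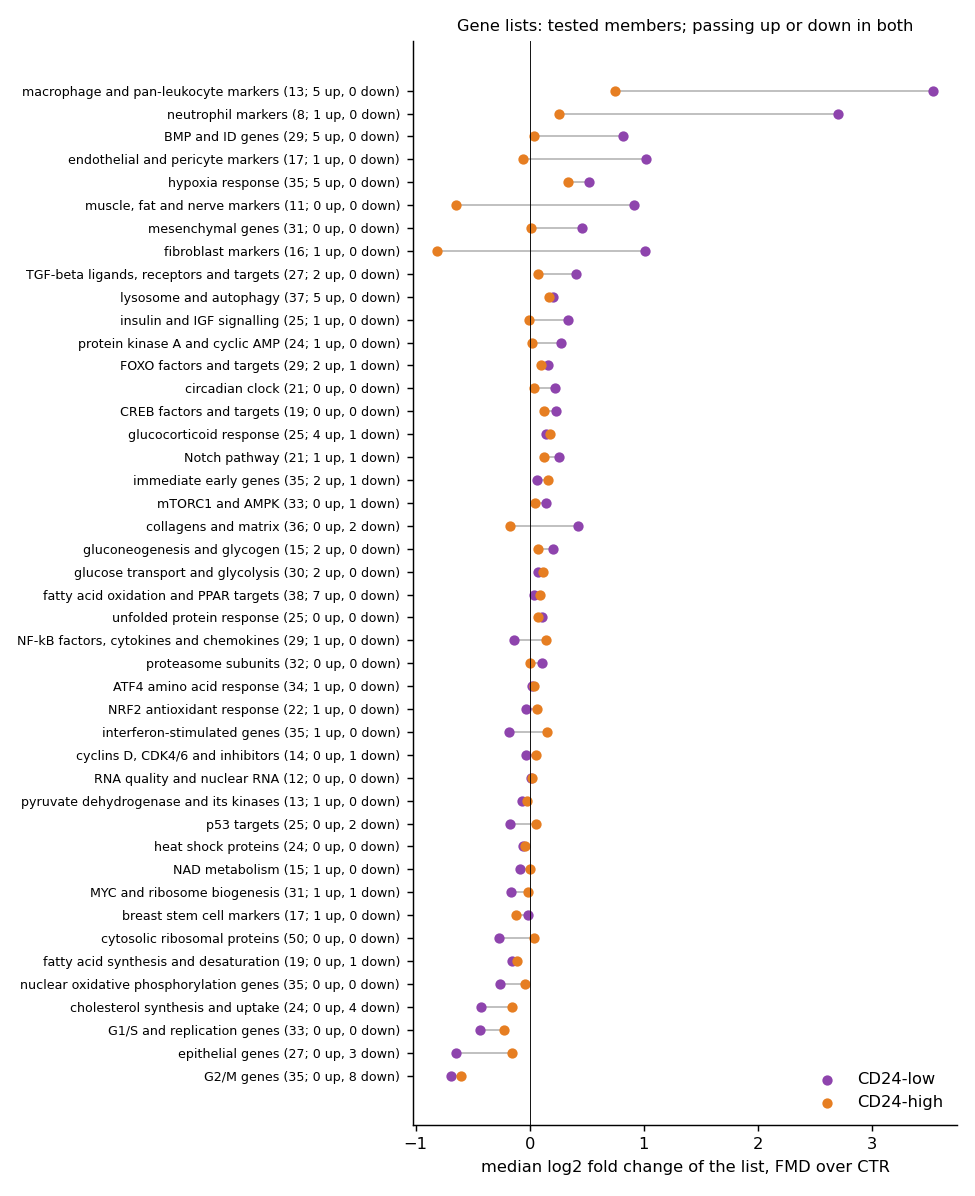
Median log2 fold change, FMD over CTR, of each gene list with at least 5 tested members in CD24-low (purple) and CD24-high cells (orange), with the number tested and passing in each direction beside its name. G2/M, sterol and hypoxia medians lie on one side of 0 in both populations, and leukocyte and fibroblast medians lie far apart.

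The FMD libraries of each population were compared with each other by level, without use of CTR values, and a tie went to the lower number. FMD replicate 3 was the lowest for 198 of the 324 higher genes in CD24-low cells and 150 in CD24-high cells, and for 121 in both. Replicate 1 was the lowest in both populations for 36 of these genes and replicate 2 for 26. Among the 190 lower genes, replicate 3 was the highest for 103 in CD24-low and 77 in CD24-high cells. It was the highest in both for 54, against 13 for replicate 1 and 21 for replicate 2. These counts were not made for all genes tested. Whether libraries of one number share a tumour was not tested.

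The CD24-low and CD24-high libraries were also fitted apart, so that the comparisons shared no library. Of 605 genes that were lower in the 6 CD24-low libraries alone and tested in CD24-high cells, 540 were also lower there, or 89.3%, where 48.9% of all genes tested in both were lower. Of 1452 that were higher in CD24-low cells, 981 or 67.6% were also higher in CD24-high cells, where 51.1% of all genes were. These shares describe signs only, and whether the populations came from the same tumours is not stated.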

How the data were processed

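The files hold raw gene counts per library, deposited by the authors; reads were aligned with STAR to hg38, per the submitters' processing notes; their version and the annotation are not stated there. The column of reads on the reverse strand was used, as the kit is stranded per the labels' protocols. CPM of single genes are scaled to the TMM-adjusted total; marker sums and defining markers to the plain total. Genes were fitted with edgeR 4.0.16 (R 4.3.3; quasi-likelihood, robust, TMM, default filter by group), with population and diet as terms (9 residual degrees of freedom, biological coefficient of variation 0.217); values within populations and their difference came from a fit of 4 group means (8 degrees, 0.19). Adjusted p-values are Benjamini-Hochberg over the 15461 genes kept; the filter left out 11014 of 26475. The standard error is the absolute log2 fold change over the root of F. The fit was tested on simulated data. Positions and promoters are from RefSeq GRCh38.p14, to which 25311 symbols matched.

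Named were, among genes that passed with equal sign, without overlap and with at least 2 CPM in the higher diet, the 12 with the largest smaller within-population fold change and the 6 with the smallest p in each direction, and up to 3 members per list; part of these are given, and all passing members of the lists described, HCAR2, IKZF1, SASH3, ID2 and the list members that did not pass were chosen after their values were seen. Promoters were chosen after values were seen, not by rank. The members and the 46 lists were chosen with earlier results of these data known. Alternatives used DESeq2 1.42.0 and limma 3.58.1, and counting intervals cover counting error only. Results of some genes are not reported here. The rule skipped non-coding and unnamed genes. No column of values was left unmapped.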

Additional observations from a re-analysis of the deposited data

Results flagged for a closer look

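The diet difference was larger in CD24-low than in CD24-high cells by the test of that difference for 11 of the named genes. It was larger by 6.63 on the log2 scale for MMP8, a neutrophil collagenase, 4.94 for ATP6V0D2, 4.9 for PLIN2, 4.22 for PYGL, glycogen phosphorylase of liver and leukocytes, 3.95 for HAL, a histidine lyase, 3.58 for SPI1, 3.39 for ITGAM, 3.05 for UCP2, a mitochondrial carrier, 1.25 for MAP1LC3A, 0.859 for PGK1 and 0.586 for BECN1. Adjusted p-values were 0.00443 to 0.0432. The leukocyte markers, which include SPI1 and ITGAM, were also highest in FMD_LO. They had 246.8 to 316 summed CPM there, against 30.13 to 76.6 CPM in the other groups, and their part was not tested.

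Single libraries lay far from the other 5 of their diet for 14 genes; chance marks about 1 in 20 groups. CTR_LO replicate 2 was high among the CTR libraries for SLC28A2 (0.336 CPM), CSGALNACT1 (0.773 CPM), PDK4 (3.8 CPM), PYGL (2.32 CPM) and PLIN2 (2.18 CPM). FMD_HI replicate 2 was high among the FMD libraries for RASSF6 (6.63 CPM) and USH1G (1.77 CPM), FMD_HI replicate 3 for DUSP6 (193 CPM), FMD_LO replicate 2 for STARD4 (23.6 CPM) and FMD_LO replicate 3 for MRC1 (3.85 CPM). FMD_LO replicate 3 was low for RELB (68.7 CPM). Among CTR libraries, CTR_LO replicate 3 was high for CAMK2B (38.1 CPM), CTR_HI replicate 1 high for CENPE (28.7 CPM) and CTR_HI replicate 3 low for CDKN2C (43.4 CPM).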

How the results depend on the processing

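No named gene that passed changed sign in any alternative. CD24 and CD44, which did not pass, did so, with log2 fold changes of -0.43 to 0.188 and -0.215 to 0.00796. Counts of genes that passed, then those higher and lower in both populations, were 532, 324 and 190, and stayed within 1.5 times under RLE scaling, without the count filter, when both strands were counted and with a replicate block by number (414, 245 and 164). They were 1742, 1097 and 556 with DESeq2, 1711, 991 and 513 with the contrast averaged from 4 group means, 200, 150 and 27 with a replicate block within diet in limma voom, and 1060 and 664 (all and higher) with limma voom without a block. Counts of both populations added by diet and number gave 47 lower genes, and thinning to the smallest total 522 higher ones. Without single libraries the ranges were 48 to 1259 in all, 32 to 860 higher and 14 to 432 lower. Without both FMD libraries of a number they were 11, 9 and 2 for replicate 1, 46, 22 and 22 for replicate 2 and 1435, 835 and 578 for replicate 3; without both CTR libraries 23, 18 and 5 for replicate 1, 833 and 578 (all and higher) for replicate 2 and 96, 51 and 43 for replicate 3. With CD24-low libraries alone they were 2350, 1103 and 547, and with CD24-high libraries alone 0, 0 and 0 at 874 unadjusted; fewer samples enter these fits. These fits of 1 population and limma voom without a block were added after seeing the data. For the other shifts the cause was not tested. Deviations of same-numbered libraries of one diet correlated at 0.444, 0.285 and 0.485 under FMD and 0.445, 0.522 and 0.0373 under CTR. Of these 6, 5 exceed 0.1 and 1 does not. Libraries of one diet with different numbers, across the populations, correlated at -0.372 to -0.0376 under FMD and -0.549 to 0.171 under CTR. The labels do not say what a number marks. The fit without a block was kept as the main one, and the block is given beside the lists. If a number marks a tumour, the 532 calls and the p-values given count more independent samples than there were. The 3 FMD_LO libraries are the shallowest, which limits genes of low count.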
